A study of Mus musculus with 4 samples.

Results

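Library 1 is a pool of mutant mouse cells in which a piggyBac gene trap transposon had inserted into the genome. All genes with at least 1 read in the table of this library were taken, which gave 4184 genes of the 5614 listed in either of the study's libraries. The cells were haploid neural stem cell-like cells of 129Sv background, derived from haploid embryonic stem cells through embryoid bodies, and both libraries shared this origin. The derivation medium held FGF2, EGF, LDN193189, SB431542 and a ROCK inhibitor, either Y-27632, Thiazovivin or both. The cells received a piggyBac gene trapping plasmid and a codon optimized PB transposase and were selected with G418, and the labels give no treatment that sets the libraries apart. Genomic DNA was measured, so expression of neural stem cell markers could not be checked. Each library is the sum of 2 of the 4 samples in 1 table with no column per sample. Library 1 therefore has no replicate error, and each interval of a share is an exact Clopper-Pearson 95% interval that covers counting error only. Intervals of medians are order-statistic 95% intervals over genes, which are not replicates.

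A gene trap carries a splice acceptor and a selectable marker, so that an insertion inside a transcribed gene can both interrupt its transcript and make the cell drug resistant. The piggyBac transposon inserts at short TTAA target sites and is widely used for mutagenesis of mammalian cells. In a haploid cell no other allele covers an interrupted gene, which is why such pools serve as the starting point of recessive screens. Splinkerette PCR amplifies the junction of transposon and genome, and the reads of such a junction name the gene that was hit.

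The table gives, for each gene, a count of nonredundant reads and a count of redundant reads. In every gene the redundant count was equal to or above the nonredundant one. The library held 55442 nonredundant reads, so that 1 read is 0.0018% of it. Reads per gene are not corrected for gene length, and the labels do not say how a nonredundant read relates to an insertion or to a cell. "Reads" below means nonredundant reads unless redundant reads are named. "Copies" means redundant reads and is a name only, since what made a read nonredundant was not given.

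Genes were set into classes by their reads. Of the 4184 genes, 126 (3.01%) had 100 or more reads, 373 (8.91%) had 10 to 99, 1439 (34.4%) had 2 to 9 and 2246 (53.7%) had 1. The 126 genes of the first class held 62.2% of the nonredundant and 87.8% of the redundant reads. The 10 to 99 class held 25.1% and 8.50%, the 2 to 9 class 8.63% and 2.49%, and the single-read genes 4.05% and 1.19%. Reads were concentrated to the point that 75 genes held 50% of the nonredundant reads and 15 genes held 50% of the redundant reads. The median gene had 193.5 reads in the first class, 29 in the next and 3 in the 2 to 9 class.

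The class limits fell in a continuous range of values. Just inside the limit of 100 reads were Kirrel3 with 101, and Arhgap26 and Inpp5a with 100 each. Just outside it were Map3k19 with 99, and Cntn5 and Kif16b with 98 each. At the limit of 10 reads, Myef2, Prss36 and Zfp536 had 10, and Gm5795, Serpinb1a and Sost had 9. Kirrel3 and Map3k19 are thus told apart by the limit and not by any gap in the counts.

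**Figure D1:**
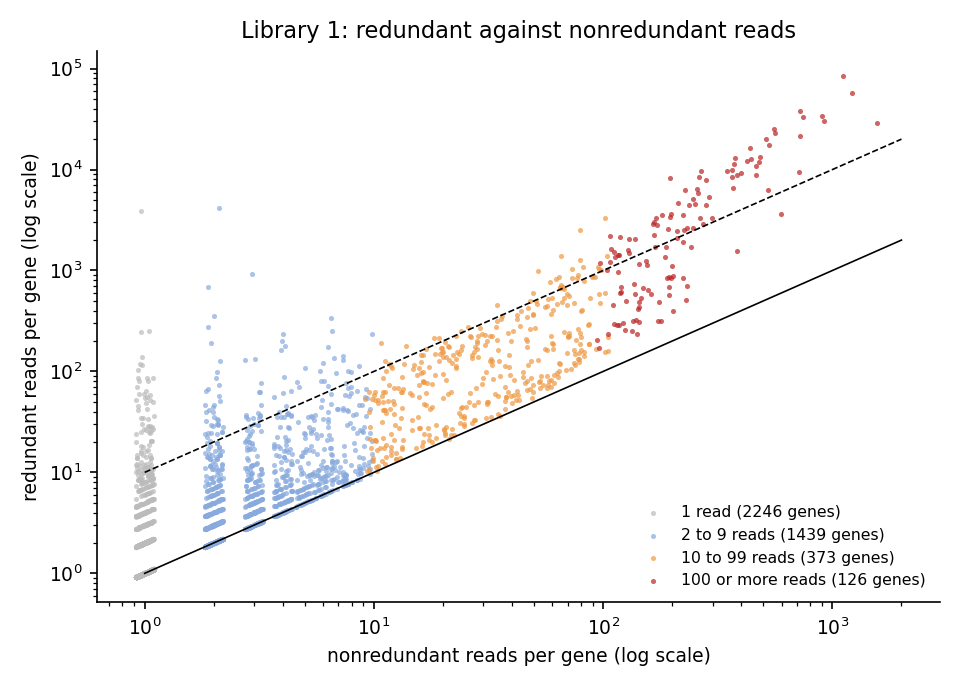
Redundant reads against nonredundant reads of each gene in library 1, both on log scales, with 1 point per gene, coloured by class and shifted by up to 10% along the diagonal to part overlapping points. The solid line marks equal counts and the dashed line 10 redundant reads per nonredundant read; 73 of the 126 genes with 100 or more reads lie on or above the dashed line, against 33 of the 373 genes with 10 to 99.

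The number of redundant reads per nonredundant read rose with the class in its median, although the ranges of the classes overlapped. Its median over genes was 12 at 100 or more reads (order-statistic 95% interval 9.63 to 15.1 over 126 genes, quartiles 4.23 and 21.5). It was 3.42 at 10 to 99 reads (2.89 to 4.18 over 373 genes, quartiles 1.61 and 6.88) and 1.33 at 2 to 9 reads (1.25 to 1.33 over 1439 genes). Equal counts in both columns, that is 1 copy per read, were found in 1727 single-read genes (76.9%), in 629 genes of the 2 to 9 class (43.7%), in 2 genes of the 10 to 99 class and in none at 100 or more. The class and the ratio share the nonredundant count, so these values are a description. Within the first class, Spearman's rho of reads and ratio across genes was 0.64, and it was 0.14 within the 10 to 99 class.

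Among the leading genes, Myo6, an unconventional myosin that moves towards the minus end of actin filaments, had the most copies with 77367 redundant reads on 1017 reads, a ratio of 76.1. Iffo2 followed at 52.0, then Map7 at 46.7, Tmem71 at 45.8 and Dok6 at 45.2. Ralgapa1, first by reads with 1506, had a ratio of 18.4. Genes in the same class could lie far below these values. Mkl1, a coactivator of serum response factor that is also called Mrtfa, had 238 redundant reads on 141 reads, a ratio of 1.69. Inpp5a, an inositol phosphate phosphatase, stood at 1.78, the RNA-binding Staufen gene Stau2 at 1.79, the sperm gene Spa17 at 1.82 and the myotonic dystrophy kinase gene Dmpk at 1.85. In all, 6 of the 126 genes had a ratio under 2.

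In the 10 to 99 class the highest ratios belonged to March1, a membrane-bound ubiquitin ligase (94 reads, ratio 32.4), and Reps2, an endocytosis adapter (87 reads, ratio 31.7). Arfgef2, an exchange factor of Arf GTPases, had 62 reads and a ratio of 21.4. At the other end, Agbl4 had 20 reads and Commd10 11 in both columns, and Lgr4 had 36 and 37.

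Genes with few nonredundant reads included some with very many redundant reads. Glra4, a glycine receptor subunit gene, had 1 nonredundant and 3983 redundant reads, and Tsc2, which encodes a part of the complex that restrains mTOR signalling, had 2 and 3978. Serpinb9c had 3 and 942, the aquaporin gene Aqp7 2 and 718, and Gfra1, a receptor for GDNF-family ligands, 2 and 350. Among the 2246 single-read genes, 86 had 10 or more redundant reads and 7 had 100 or more. A class made from redundant reads would hold 343 genes at 100 or more, of which 126 had 100 or more nonredundant reads, 184 had 10 to 99 and 33 had under 10.

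**Figure D2:**
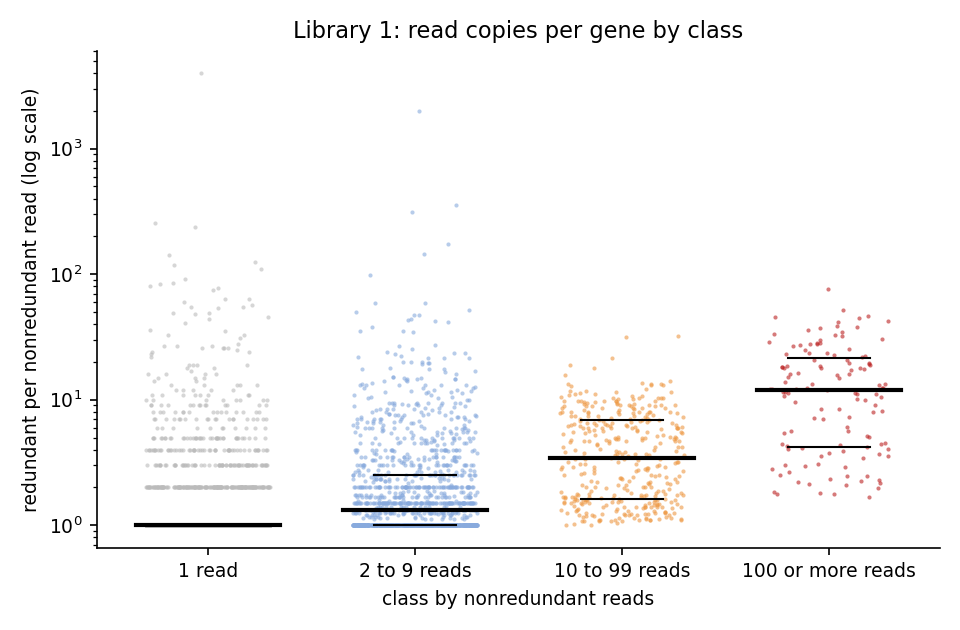
Redundant reads per nonredundant read (log scale) in each read class of library 1, with 1 point per gene, a thick line at the median and thin lines at the quartiles. The median rises from 1 and 1.33 in the lower classes to 3.42 and 12, while the highest single values, 3983 for Glra4 and 1989 for Tsc2, lie in the lower classes.

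Genes of 28 lists of gene families were counted in each class. The lists were patterns of gene symbols and left out some genes of like function. The replication genes Dbf4 and Atad5, the Polycomb gene Phc2 and the kinase gene Dmpk are in none of them. The counts below therefore describe the lists and not every gene with the named function. The lists held 2294 of the 4184 genes, 69 of them in more than 1 list, and 55 of the 126 genes with 100 or more reads were in none. Over all listed genes 499 (11.9%) had 10 or more reads and the median was 1 read. For 26 lists the interval of the share with 10 or more reads included this 11.9%. The interval lay above it for neuronal and Ig-family adhesion genes and below it for transporters.

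Regulators of small GTPases, the activating and exchange proteins that switch Ras-like proteins off and on, had 114 listed genes with a median of 2 reads. Of these 6 had 100 or more reads, 12 had 10 to 99 and 50 had 2 to 9. The share with 10 or more was 15.8% (interval 9.63 to 23.8), which includes the 11.9% of all listed genes. Ralgapa1, the catalytic subunit of a Ral GTPase-activating complex, led with 1506 reads. Dock2, a Rac exchange factor best known from blood cells, had 195, the Ras GTPase-activating neurofibromin gene Nf1 182, Agap1 161, Rasgrp1 141 and Arhgap26 100. In the class below were Dennd1b with 97 reads, Arhgap6 with 96, Arhgef38 with 54 and Dennd4c with 49, and Fgd3 and Tbc1d22a led the 2 to 9 class with 8 each.

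The cytoskeleton was represented in all classes. The share with 10 or more reads was 15.3% for microtubule proteins and motors and 13.6% for actin proteins and myosins. Both intervals included the 11.9% of all listed genes. Microtubule proteins and motors had 59 listed genes, with 2, 7 and 29 in the classes of 100 or more, 10 to 99 and 2 to 9 reads. Map7, which recruits kinesin to microtubules, had 1315 reads and the spectraplakin gene Macf1 176. The kinesin genes Kif16b and Kif1b had 98 and 90, and Dcx, the doublecortin gene of migrating neurons, had 8. Actin proteins and myosins had 66 listed genes, with 4, 5 and 29 in the same classes. After Myo6 with 1017 reads came the formin gene Fmn2 with 177, the actin regulator Enah with 152 and Nckap5 with 114.

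Adhesion genes gave the one list that stood above the background. Of 49 listed neuronal and Ig-family adhesion genes, 22 had 10 or more reads (44.9%, interval 30.7 to 59.8) and the median was 6 reads. Sdk1, an adhesion molecule of synaptic layers, had 235 reads, Igsf9 230, the teneurin gene Tenm2 217, Dscaml1 141, the reelin adapter gene Dab1 137 and Kirrel3 101. Dab1 is counted in this list although it is an adapter and not an adhesion molecule. Cntn5 with 98, Igsf9b with 62, Astn2 with 59 and Ncam1 with 54 followed. Most of these genes are very long. In the longest 10% of reference genes the list still had 20 of 40 listed members at 10 or more reads (interval 33.8 to 66.2%), against 283 of 1507 listed genes (18.8%, 16.8 to 20.8) in that length class. The length class is open at the top, so members may still be longer than the genes they are set beside. It was 1 of 28 lists looked at, the split by length was added after its share was seen, and reads of long adhesion genes were known when the list was written, so its count is no independent support for a lean towards adhesion.

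The other surface families lay near the background. Cadherins and protocadherins had 30 listed genes, of which 1, 3 and 10 fell in the classes of 100 or more, 10 to 99 and 2 to 9 reads. Cdh13, an anchored cadherin without a cytoplasmic tail, had 224 reads, the N-cadherin gene Cdh2 67 and Fat3 14. Axon guidance genes had 38 listed, with 2, 3 and 15 in the classes; the Eph receptor genes Epha4 and Ephb1 had 668 and 370 reads and the semaphorin receptor gene Nrp2 44. Matrix, integrin and ADAM genes had 84 listed with 2, 11 and 34, led by the transmembrane collagen gene Col25a1 with 295 reads and Itgbl1 with 194. Lamb1, which encodes a laminin chain, had 40.

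Signalling enzymes had shares with 100 or more reads around the 3.01% of all listed genes, with 2.10% of protein kinases, 3 of 60 cyclic nucleotide and G-protein signalling genes and 2.20% of phospholipid and lipid genes. Protein kinases had 143 listed genes with 3, 15 and 62 in the classes. Prkg1, the kinase activated by cyclic GMP, had 220 reads, Hipk2 179 and Prkce, a protein kinase C, 128, followed by Map3k19 with 99, the BMP receptor gene Bmpr2 with 80 and Map4k4 with 77. Protein phosphatases had 50 listed genes with 0, 6 and 21, and Tns1 with 56 reads and the calcineurin subunit gene Ppp3ca with 52 were highest. Cyclic nucleotide and G-protein signalling had 60 listed with 3, 5 and 23. Rgs7, an accelerator of G-protein inactivation, had 253 reads and the phosphodiesterase genes Pde3b and Pde10a had 149 and 49. Phospholipid and lipid genes had 91 listed with 2, 6 and 36, led by Acsl4, which activates long-chain polyunsaturated fatty acids, with 457 reads.

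Receptors, channels and transporters reached 100 reads about as often as all listed genes (3.01%), with 3.17% of G-protein-coupled receptors, 2.06% of ion channels and 1.54% of transporters and intervals that all included that share. G-protein-coupled receptors had 63 listed with 2, 7 and 19 in the classes, and their leaders were the delta opioid receptor gene Oprd1 with 674 reads and the histamine receptor gene Hrh2 with 208. Ion channels had 97 listed with 2, 7 and 42. The potassium channel gene Kcnt2 had 193 reads, the inositol trisphosphate receptor gene Itpr1 179 and the calcium channel gene Cacna1c 88. Transmitter-gated receptors had 30 listed with 0, 3 and 13, and Gabrg3 with 18 reads was highest. Solute carriers and other transporters had 130 listed with 2, 6 and 39, so that 8 (6.15%, interval 2.69 to 11.8) reached 10 reads. The upper limit lay just below the 11.9% of all listed genes, for 1 of 28 lists looked at. Of the listed transporters 26.2% were in the longest 10% of reference genes, against 36.1% of all listed genes. In that length class 5 of 34 reached 10 reads (14.7%, 4.95 to 31.1), an interval that includes the 18.8% of all listed genes there. Slc5a4a had 278 reads, Tmem163, a zinc transporter, 267 and the neutral amino acid carrier gene Slc1a4 64.

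Vesicle traffic had 124 listed genes with 3, 12 and 47 in the classes, so that 12.1% had 10 or more reads, against 11.9% of all listed genes. Vps53, a subunit of tethering complexes at the Golgi, had 467 reads, the lipid transfer gene Vps13a 206 and the exocyst gene Exoc6b 105. The ubiquitin system had 145 listed genes with 7, 10 and 42, so that 4.83% (interval 1.96 to 9.69) had 100 or more reads, an interval that includes the 3.01% of all listed genes. Those with 100 or more included the deubiquitinase genes Usp9x with 389 reads and Usp12 with 225, the ligase gene Rnf220 with 198, the conjugating enzyme gene Ube2n with 187 and the substrate receptor genes Fbxw11 with 133 and Fbxo36 with 129.

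Nuclear genes were listed in all classes too. The share with 10 or more reads was 16.7% for transcription factors, 11.5% for zinc finger genes and 11.0% for chromatin regulators. Their intervals all included the 11.9% of all listed genes. Transcription factors outside the zinc finger families had 126 listed genes with 3, 18 and 43 in the classes. Pou2f1, also known as Oct1, had 365 reads, Nfia, a nuclear factor that promotes glial fate, 349, Pbx3 102, Nr6a1 95 and Tead3 82. Zinc finger genes had 78 listed with 2, 7 and 26, led by Zfp804b with 286 reads and Zfp827 with 277. Chromatin regulators had 91 listed with 3, 7 and 34. Auts2, a partner of Polycomb complexes, had 445 reads, the acetyltransferase gene Kat6a 256, Brd8 220 and the demethylase genes Kdm5b and Kdm2b 45 and 34.

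Lists of translation, RNA processing, mitochondrial and cell cycle genes had shares with 10 or more reads whose intervals all included the 11.9% of all listed genes. The share was 5.41% for ribosome, proteasome and translation genes, 8.33% for RNA-binding and RNA processing genes, 6.98% for mitochondria and energy metabolism and 10.3% for cell cycle and DNA repair. Ribosome, proteasome and translation genes had 37 listed of 319 in the reference, with 1, 1 and 7 in the classes of 100 or more, 10 to 99 and 2 to 9 reads. That is 11.6% listed, against 19.9% of all reference genes with coding transcripts. Of the listed ones 10.8% were in the longest 10% of reference genes, against 36.1% of all listed genes. Whether length accounts for the lower share was not tested. Eif4g3, a scaffold of translation initiation, had 112 reads and Rps4x had 12. RNA-binding and RNA processing genes had 84 listed with 2, 5 and 28, led by Stau2 with 177 and the splicing regulator Rbfox1 with 145. Mitochondria and energy metabolism had 43 listed with 0, 3 and 9, and Atp5s with 48 reads was highest. Cell cycle and DNA repair had 78 listed with 2, 6 and 24. Haus3, a subunit of the augmin complex that branches spindle microtubules, had 526 reads and the recombination gene Rad51b 187. Intervals of these lists were wide, reaching from 0.66 to 18.2% for ribosome, proteasome and translation genes.

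Cell-type lists and poorly characterised genes had shares with 10 or more reads whose intervals all included the 11.9% of all listed genes. The share was 18.5% for neural stem cell and Notch genes and 12.8% for immune-type genes. It was 2.70% for smell, pheromone and taste receptors and 10.9% for poorly characterised genes. At 100 or more reads the immune-type share was 6.41% (interval 2.11 to 14.3), against 3.01% of all listed genes. Neural stem cell and Notch genes had 27 listed with 1, 4 and 8 in the classes: Nfia with 349 reads, Cdh2 with 67, the Notch coactivator gene Maml3 with 37, Pax6 with 27 and Tcf4 with 23. Immune-type genes had 78 listed with 5, 5 and 24, and their leaders Clnk, an adapter of immune receptor signalling, Dok6, Card6, Pstpip2 and Ly86 had 837, 693, 492, 486 and 233 reads. Dok6 is an adapter known from neurons and stands in this list by its family name. Smell, pheromone and taste receptors had 37 listed of 1516 in the reference, with 0, 1 and 5 in the classes. Vmn2r59 with 36 reads was the one above 9. The listed part was 2.44%, against 19.9% of all reference genes with coding transcripts. Of these listed receptors 0% were in the longest length class of reference genes, against 36.1% of all listed genes. Whether length accounts for the lower part listed was not tested. Poorly characterised genes, taken by symbols such as RIKEN clone names, had 311 listed with 8, 26 and 94, led by D6Wsu163e with 949 reads and 1700113H08Rik with 642.

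**Figure D3:**
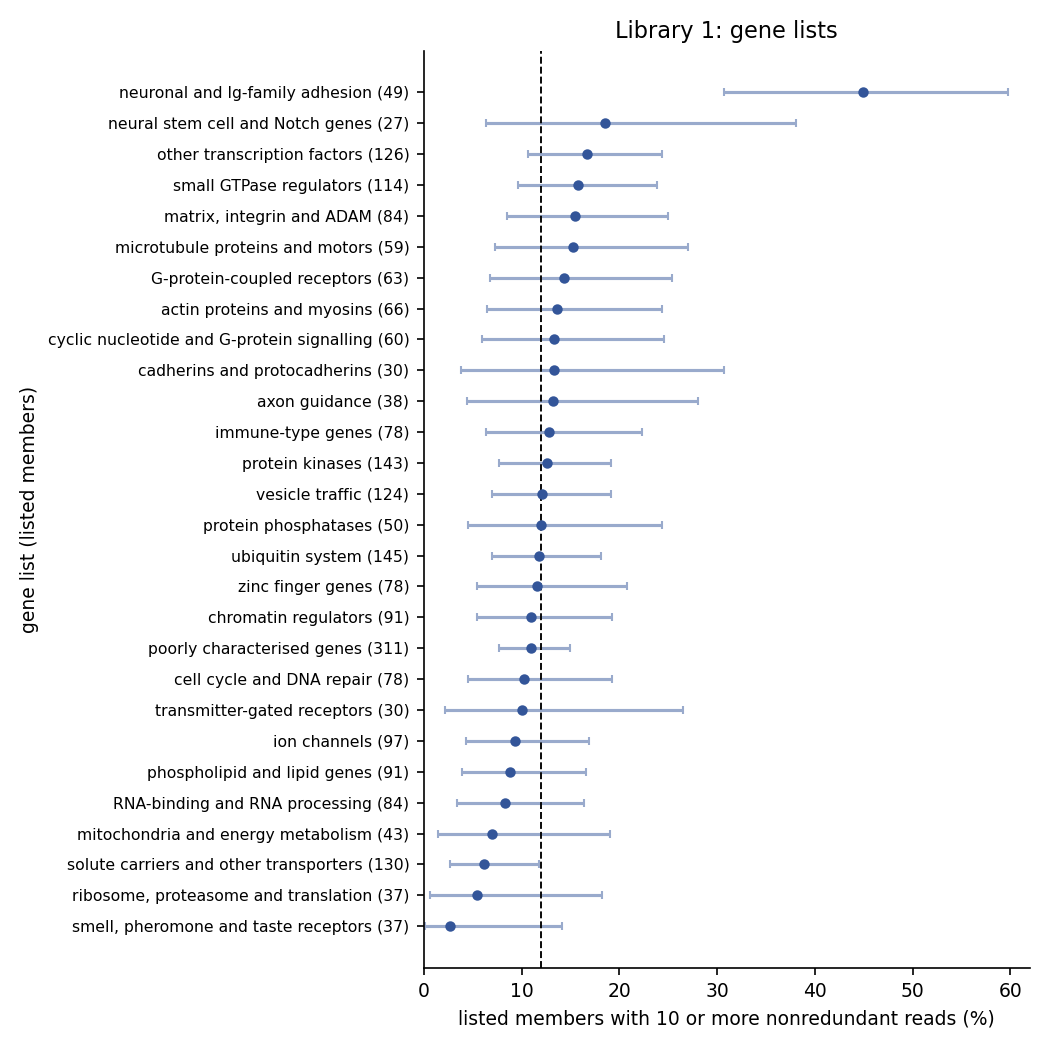
Share of listed members of each gene list with 10 or more nonredundant reads in library 1, with exact 95% intervals that cover counting error only; the number of listed members stands in brackets and the dashed line marks the 11.9% of all listed genes. Neuronal and Ig-family adhesion genes lie above the line with 44.9% and solute carriers and other transporters below it with 6.15%; the intervals of the other lists cross the line.

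Among the genes of 100 or more reads outside all lists, several are known regulators of death, growth or replication. Pawr, which encodes the pro-apoptotic factor Par-4, had 539 reads, and Pmaip1, the Noxa gene of p53-dependent apoptosis, had 384. Dbf4, the activating subunit of the Cdc7 replication kinase, had 471 reads, Nol11, a ribosome biogenesis factor, 266, Atad5, which helps to unload the replication clamp, 246, and the Integrator subunit gene Ints8 229. Ptch1, the Hedgehog receptor gene, had 161 reads. Dmd, which encodes dystrophin, had 406, the synaptic scaffold genes Gphn and Shank2 had 190 and 121, and Wwox had 122. These genes were picked from the class after their reads were seen.

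Of the 126 genes with 100 or more reads, 53 were not listed in library 2 (42.1%, interval 33.3 to 51.2), against 58.5% of all genes listed in library 1. The check through reference genes in place of symbols gave the same 53. Absence was as common at 10 to 99 reads, with 165 of 373 (44.2%, 39.1 to 49.4), and at 2 to 9 reads, with 661 of 1439 (45.9%, 43.3 to 48.6). It was more frequent among single-read genes, with 1567 of 2246 (69.8%, 67.8 to 71.7). A gene with 100 or more reads in library 1 was therefore found in library 2 about as often as a gene with 2 to 9. There is 1 pool per library, so no test of this was possible and the values describe these pools.

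Gene length went along with absence in every class. Length was taken from RefSeq genes of assembly GRCm38.p6, used only to put the 21035 genes with protein-coding transcripts in order. In the longest 10% of these genes, 14 of 71 genes with 100 or more reads were absent from library 2 (19.7%, 11.2 to 30.9), 48 of 212 at 10 to 99 (22.6%, 17.2 to 28.9), 224 of 785 at 2 to 9 (28.5%, 25.4 to 31.8) and 205 of 439 at 1 read (46.7%, 42.0 to 51.5). Among all shorter genes the shares were 38 of 54 (70.4%, 56.4 to 82.0), 117 of 161 (72.7%, 65.1 to 79.4) and 435 of 651 (66.8%, 63.1 to 70.4) in the classes of 100 or more, 10 to 99 and 2 to 9 reads. Length thus separated absent from listed genes by more than any of these 3 read classes did. The classes themselves were alike in length, with 56.8%, 56.8% and 54.7% of their genes in the longest 10%, against 19.6% of single-read genes.

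**Figure D4:**
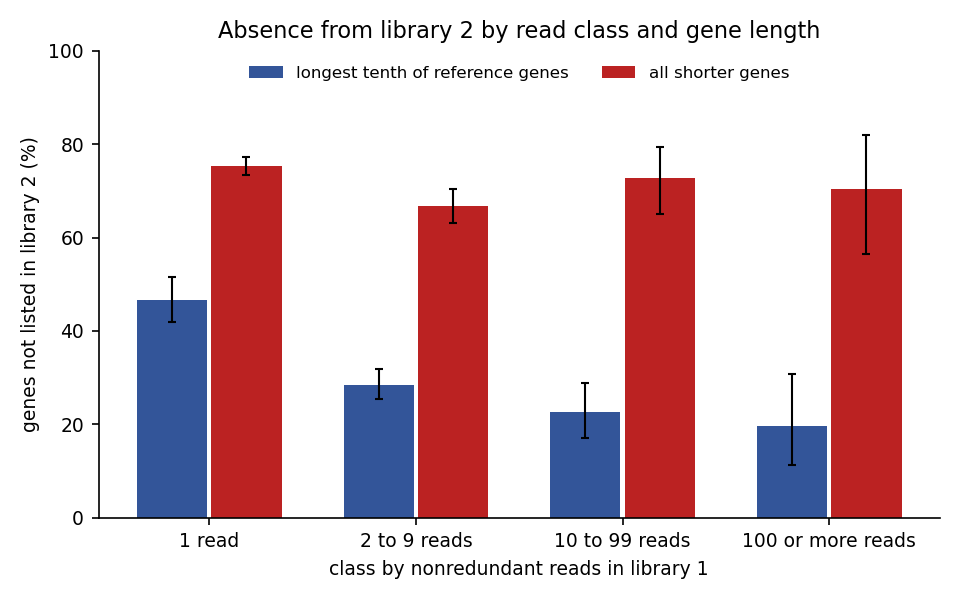
Percent of library 1 genes that are not listed in library 2, by read class, for genes in the longest 10% of reference genes and for all shorter genes, with exact 95% intervals. At 2 or more reads the long genes lie between 19.7% and 28.5% and the shorter ones between 66.8% and 72.7%.

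The 53 absent genes held 13962 reads, or 25.2% of library 1, and the 73 listed ones 20543, or 37.1%. Their reads and copies overlapped widely. The absent genes had a median of 166 reads (100 to 1506) and a median ratio of 11.1 redundant per nonredundant read (order-statistic interval 5.09 to 15.0), and the listed genes a median of 198 reads (100 to 1315) and a ratio of 12.4 (9.01 to 18.2). Of the absent genes with a reference length, 14 of 52 were in the longest 10% (26.9%, 15.6 to 41.0), against 57 of 73 listed ones (78.1%, 66.9 to 86.9). All 7 genes of 100 or more reads in the shorter 50% of reference genes were absent (interval 59.0 to 100%): Haus3, Proc, Pmaip1, Glrx2, Igsf9, Spa17 and Dmpk. Genes of that length were mostly absent in the other classes too. The counts were 19 of 22 (86.4%) at 10 to 99 reads, 61 of 80 (76.25%) at 2 to 9 and 322 of 363 (88.7%) at 1 read.

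Absent genes with signalling roles were led by Ralgapa1 with 1506 reads and 27721 redundant reads. Clnk had 837 and 31843, and Oprd1 674 and 8878. Hrh2 had 208 reads, Ptch1 161, Pde3b 149, Rasgrp1 141, Dab1 137, the small GTPase gene Rap1b 121, Dmpk 124 and Inpp5a 100. Adhesion and matrix genes among them were Col25a1 with 295 and Igsf9 with 230. Muc19, a mucin gene by its symbol, had 166, and the reference gene it matched was Smgc. Tmeff2, a transmembrane protein with follistatin domains, had 165, and the synaptic scaffold gene Shank2 121.

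A further group acts in the nucleus or in division. Haus3 had 526 reads, Dbf4 471, the Polycomb gene Phc2 426, Exd2, an exonuclease, 279, Kat6a 256 and Brd8 220. Mkl1 had 141, Insc, which orients the mitotic spindle, 136, Tmpo, a protein of the nuclear lamina, 113 and Pbx3 102. Cytoskeletal and ciliary genes were Iffo2 with 679, the adducin gene Add2 with 404, Traf3ip1, a component of intraflagellar transport, with 199, and Eml5 with 199. Add2 had 1665 redundant reads, a ratio of 4.12, while Iffo2 had 35320 redundant reads and a ratio of 52.0.

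Traffic, turnover and metabolism made up most of the rest. Zfyve27, which encodes protrudin, had 389 reads, Usp12 225, Vps13a 206, Ube2n 187, Fbxw11 133, Fbxo36 129 and the autophagy receptor gene Optn 106. Alox5ap, needed for leukotriene synthesis, had 361, the mitochondrial glutaredoxin gene Glrx2 356, Mpped2 156, the lipid carrier gene Apod 135, the monoamine oxidase gene Maoa 124 and Dip2a 121. Proc, the gene of the anticoagulant protein C, had 507, Pmaip1 384, Spa17 158 and the lipopolysaccharide-binding protein gene Lbp 120. Further absent genes were 2310035C23Rik with 227, 1600023N17Rik with 177, Iqca and Lrguk with 125 each, Tmem178 with 121 and Tpd52 with 104. The table gives 1600023N17Rik non-coding transcripts only, the one such gene of its class.

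Most of the 73 genes listed in library 2 had few reads there. The count was 1 read for 27 genes, 2 for 17 and 3 for 9. A further 8 genes had 4 to 9 reads and 12 had 10 or more (9.52% of 126, 5.02 to 16.0), against 4.92% of all genes listed in library 1. This share was 8.31% (5.72 to 11.6) at 10 to 99 reads and 6.95% (5.69 to 8.39) at 2 to 9, so the intervals of these classes overlap. Among the 12 were Ephb1 with 675 reads in library 2, Cdh13 with 243, Nckap5 with 212, Rnf220 with 55, Nfia with 38, Dmd with 27, Macrod2 with 26, Slc5a4a with 23, Tmem163 with 18, Myo6 with 16 and Tenm2 with 11. Of these named genes, Slc5a4a alone was outside the longest 10%. A single read in library 2 was about equally common in all classes, at 21.4%, 16.9%, 21.3% and 19.6% from the highest class to the lowest.

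**Figure D5:**
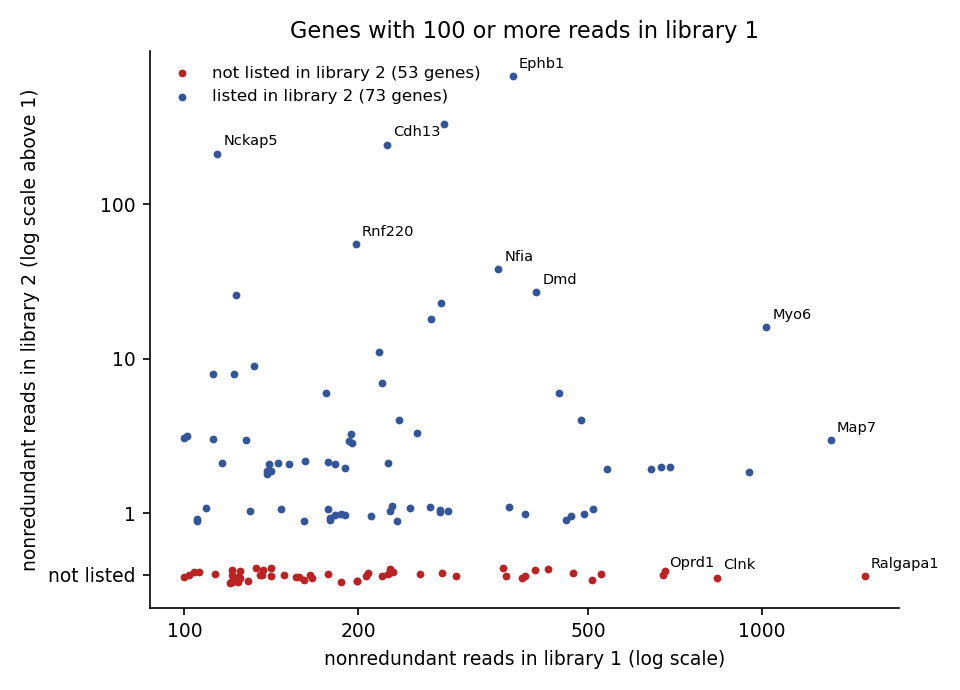
Nonredundant reads in library 2 against those in library 1 for the 126 genes with 100 or more reads in library 1, both on log scales, with genes not listed in library 2 in a row of their own below 1; points at 3 reads or fewer are shifted slightly in height. The row of 53 genes spans 100 to 1506 reads in library 1, and 53 further genes lie at 1 to 3 reads in library 2.

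Reads could in principle be counted for several overlapping genes, which the sources do not settle. No 2 neighbouring genes in the reference order had identical pairs of counts at 10 or more reads, and 10 pairs did at 2 to 9 reads, all with 2 reads in each column. Among single-read genes, 166 groups of neighbours with identical counts held 350 genes, and whether they share reads was not tested. Of the 126 leading genes, 22 overlap another gene that has protein-coding transcripts in the reference or is listed in library 1. Unlisted non-coding genes were not searched. In 4 of these the other gene was listed, with 6 reads or fewer: Zc3h14 with 2 reads within reach of Eml5, Fgf14 with 3 at Itgbl1, Tbxas1 with 6 at Hipk2 and Siae with 1 at Spa17. As a view of what low counts can be, 3 Y-linked genes were listed, Rbmy and Usp9y with 1 read each and Kdm5d with 2 reads and 7 redundant reads. The labels do not say whether the cells carry a Y chromosome. X-linked genes numbered 5 at 100 or more reads, 20 at 10 to 99, 54 at 2 to 9 and 72 at 1 read. Where the reads of the Y-linked genes came from was not tested.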

How the data were processed

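Genomic DNA was amplified by splinkerette PCR and sequenced in 2 samples per library, per the labels' protocols. Reads were handled with CASAVA and BWA on build mm9, per the submitters' processing notes. How reads were assigned to genes and what made a read nonredundant was not given in the sources used here, nor were tool versions. The deposited tables give raw counts of nonredundant and redundant reads per gene, per the file headers, with no normalization. Their depth was 55442 and 48750 nonredundant reads.

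Counts were classed and summarised with Python 3.11.15, pandas 2.3.3 and SciPy 1.17.1, and the functions were tested on simulated data. Of 4184 genes, 4182 matched RefSeq genes of GRCm38.p6 by transcript or symbol. That assembly served for names, neighbours and length order only. No test between libraries was made, since each is 1 pool. The members and lists were chosen with earlier results of these data known, and several choices were made after the counts were seen: list patterns that took in non-members were corrected, transcript matches were made to prefer the deposited symbol, the length order was limited to genes with coding transcripts, and absence was split by length. A comparison of promoter sequence was computed and dropped, since under 80% of the genes had a promoter in the table used. The rule for names covers all genes absent from library 2 at 100 or more reads, the 30 genes with most reads, the leading members per list and class, the extremes of copies per read, and genes at the class limits. Genes outside this rule (the examples outside all lists, those with 10 or more reads in library 2, overlapping and Y-linked genes) were chosen after their values were seen. Some genes it gives are not reported by name.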

Additional observations from a re-analysis of the deposited data

How the results depend on the processing

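No paired analysis was possible because each library is 1 table with no column per sample, and for the same reason no sample could be left out. With redundant in place of nonredundant reads, the classes held 343 genes at 100 or more, 572 at 10 to 99 and 1542 at 2 to 9, and 147 genes of the first class were absent from library 2 (42.9%). The count of absent genes was 105 of 236 at a minimum of 50 reads (44.5%) and 22 of 58 at 200 (37.9%). Counting genes with at most 1 read in library 2 as absent gave 80 (63.5%), and at most 3 reads gave 106 (84.1%), so the number set apart rests on what counts as absent. Neighbours with identical counts, taken as 1 gene, left the 126 and 53 genes as they were. Redundant reads summed and divided by summed nonredundant reads gave 22.3, 5.37 and 4.57 in the classes of 100 or more, 10 to 99 and 2 to 9 reads. These values were above the medians, with the lower classes close together. Single-read genes stood at 4.65, so this measure did not rise from them to the 2 to 9 class. Without genes of equal counts the median of the 2 to 9 class was 2.00, and it was 12 at 100 or more reads and 3.52 at 10 to 99. For the lists, the count of members with 10 or more reads moved by over 1.5 times in 25 of 28 with redundant reads and in 1 of 28 when genes of several lists were left out. Added after the data were seen, list patterns as first written kept all 28 counts within 1.5 times (21 kinases with 10 or more reads in place of 18), and a length order over 26220 coding and non-coding genes put absence from library 2 at 23.7% for long and 70.0% for shorter genes with 100 or more reads. Most genes have 1 read, where depth allows no statement on whether a gene was hit.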
